A study of Homo sapiens with 3 samples.

Results

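The replication-dependent histone genes are the many small genes, named HIST1 to HIST4 by the cluster they lie in, that supply the linker histone H1 and the core histones H2A, H2B, H3 and H4. Members were all regions of the deposited list whose assigned genes include a symbol that begins with HIST1H, HIST2H, HIST3H or HIST4H, each region counted once. They were 36 of 67969 regions, and 44 histone genes of the 21948 gene symbols in the list were assigned to them. HIST1 on chromosome 6 held 30 regions and 34 genes, HIST2 on chromosome 1 held 4 regions and 9 genes, and HIST4 on chromosome 12 held 2 regions and 1 gene. The HIST3 cluster, also on chromosome 1, had no region. By class the genes were 4 of H1, 12 of H2A, 12 of H2B, 8 of H3 and 8 of H4.

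All libraries came from MDA-MB-231 LM2, a metastatic subline of a human breast cancer cell line, and the labels give no treatment. The samples were 1 ChIP with 6 µg of an antibody to the replacement histone H3.3, 1 ChIP with 4 µg of an antibody to the replication-coupled histones H3.1 and H3.2, each from 30 µg of chromatin, and 1 input DNA that was not analysed here. Headers of both ChIP columns add shGFP, a hairpin tag that the sample labels do not mention. ChIP of DNA gives no expression values, so the labelled cell line could not be checked against marker genes. With 1 library per antibody nothing could be tested between antibodies, and every difference below is a description of these libraries. Intervals of folds and heights cover counting error only, and those of medians the spread over regions or genes.

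Replication-dependent histone genes are transcribed in S phase, when new chromatin needs new histones, and are gathered in histone locus bodies around the coactivator NPAT. They lack introns, and their messages end in a stem-loop bound by SLBP in place of a poly(A) tail. Most H2A and H2B genes stand head to head in pairs that share a short promoter. The H3 genes of HIST1 encode H3.1 and those of HIST2 encode H3.2, the very proteins that the H3.1/H3.2 antibody recognises, whereas H3.3 comes from replication-independent genes elsewhere. H3.3 is placed throughout the cell cycle, mainly at active promoters and enhancers, and H3.1 and H3.2 are placed behind the replication fork.

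The promoter sequences below show the class-specific build of these genes, since the regions described further on lie around such starts. They were taken from RefSeq on GRCh38.p14, which held a promoter for 66 of the 71 protein-coding genes with an older HIST symbol, and run up to the last base before the gene's start or before a neighbouring histone gene. Capitals mark TATAAA (the TATA box), CCAAT (bound by NF-Y), ATTTGCAT (the octamer bound by OCT1), AAACACA (the H1 box) and GGTCCG (part of the H4 site bound by HINFP), searched on both strands. Matches may overlap, as GGTCCG on the minus strand and CCAAT do in HIST2H2BE. HIST1H2AC on the plus strand (chr6:26123927-26124171) and HIST2H2BE on the minus strand (chr1:149886683-149886917) are whole intervals between a head-to-head pair, with HIST1H2BC and HIST2H2AC at their far ends. HIST1H1E (chr6:26156079-26156328) and HIST1H3A (chr6:26020201-26020450) on the plus strand and HIST1H4H (chr6:26285535-26285784) on the minus strand stand for H1, H3 and H4. HIST2H3C on the minus strand (chr1:149841209-149841458) is an H3.2 gene whose start lay outside every region.
HIST1H2AC: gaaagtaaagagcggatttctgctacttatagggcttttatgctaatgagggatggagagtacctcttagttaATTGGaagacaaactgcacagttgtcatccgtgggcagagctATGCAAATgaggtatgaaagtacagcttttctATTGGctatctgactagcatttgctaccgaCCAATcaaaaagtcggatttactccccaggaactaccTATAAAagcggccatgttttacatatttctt
HIST2H2BE: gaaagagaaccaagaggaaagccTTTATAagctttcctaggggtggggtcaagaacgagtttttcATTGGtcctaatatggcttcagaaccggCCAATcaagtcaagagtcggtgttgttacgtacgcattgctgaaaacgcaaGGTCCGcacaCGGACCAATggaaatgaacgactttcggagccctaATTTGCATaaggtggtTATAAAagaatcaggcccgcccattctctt
HIST1H1E: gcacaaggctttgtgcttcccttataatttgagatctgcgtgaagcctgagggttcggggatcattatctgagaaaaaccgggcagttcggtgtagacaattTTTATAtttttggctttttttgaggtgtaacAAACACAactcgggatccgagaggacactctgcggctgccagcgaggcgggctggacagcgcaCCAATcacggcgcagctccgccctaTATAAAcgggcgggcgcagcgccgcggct
HIST1H3A: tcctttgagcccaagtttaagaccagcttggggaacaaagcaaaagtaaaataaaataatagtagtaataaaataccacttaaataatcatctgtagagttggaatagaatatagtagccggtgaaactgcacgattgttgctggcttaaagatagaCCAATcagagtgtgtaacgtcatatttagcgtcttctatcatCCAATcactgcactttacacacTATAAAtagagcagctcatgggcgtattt
HIST1H4H: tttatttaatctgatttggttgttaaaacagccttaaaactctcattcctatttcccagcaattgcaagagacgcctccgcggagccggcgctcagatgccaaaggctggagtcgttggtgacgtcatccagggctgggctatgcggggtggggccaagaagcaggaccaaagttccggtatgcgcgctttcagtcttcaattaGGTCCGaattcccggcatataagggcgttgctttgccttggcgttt
HIST2H3C: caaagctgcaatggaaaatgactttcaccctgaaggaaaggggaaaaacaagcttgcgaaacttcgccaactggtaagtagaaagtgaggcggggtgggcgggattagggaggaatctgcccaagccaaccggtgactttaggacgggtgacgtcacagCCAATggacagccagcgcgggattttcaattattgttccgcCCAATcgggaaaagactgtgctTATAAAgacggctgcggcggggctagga

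In the 250 bases before the start, CCAAT lay in 56 of 66 histone promoters (84.8%), against 33% of all 27305 RefSeq promoters. TATAAA lay in 44 (66.7%), against 11.1% of all promoters. With both strands searched, a match between head-to-head genes can count for both of them. On the gene's own strand TATAAA lay in 39 of 66 (59.1%), against 7.17% of all promoters. On either strand the octamer was found in 14 of 18 H2B and 11 of 16 H2A promoters, against 1.66% of all promoters. On the gene's own strand it lay in 13 of 18 H2B but only 1 of 16 H2A promoters, against 0.798% of all. No H1 or H4 promoter held it on either strand. It was in 1 of 13 H3 promoters, whose sequence is also that of an H2A gene. RefSeq starts HIST1H3D and HIST1H2AD at the same base. The H1 box lay in 6 of 6 H1 promoters, against 4.95% of all. GGTCCG lay in 12 of 13 H4 promoters and in 1 each of the H2A, H2B and H3 promoters, against 9.33% of all. A sixth motif, the E-box CACGTG, was in none of the histone promoters and in 6.49% of all. These matches describe letters and do not show binding.

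Most histone gene regions had a greater H3.3 height than H3.1/H3.2 height. A region's height is the mean number of stacked tags over its length. The H3.3 height had a median of 12.6 and ran from 3.33 to 24.2, and the H3.1/H3.2 height had a median of 3.84 and ran from 1.60 to 9.33. H3.3 was at least 1.5-fold over H3.1/H3.2 in 32 of 36 regions, a call that 45.2% of all regions and 58.8% of all promoter regions met. H3.1/H3.2 was higher by as much in the other 4, a call that 34.9% of all regions and 19.1% of promoter regions met, and no region lay between. The fold had a counting interval above 1 in each of the 32 (45.2% of all regions) and below 1 in each of the 4 (33.8% of all regions). The authors' marks gave H3.3 alone in 31 regions (45.7% of all regions), both in 1 (16.3%) and H3.1/H3.2 alone in 4 (38% of all regions). A region is listed only where a ChIP was called, so the folds, their intervals and these marks are not independent of each other.

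**Figure D1:**
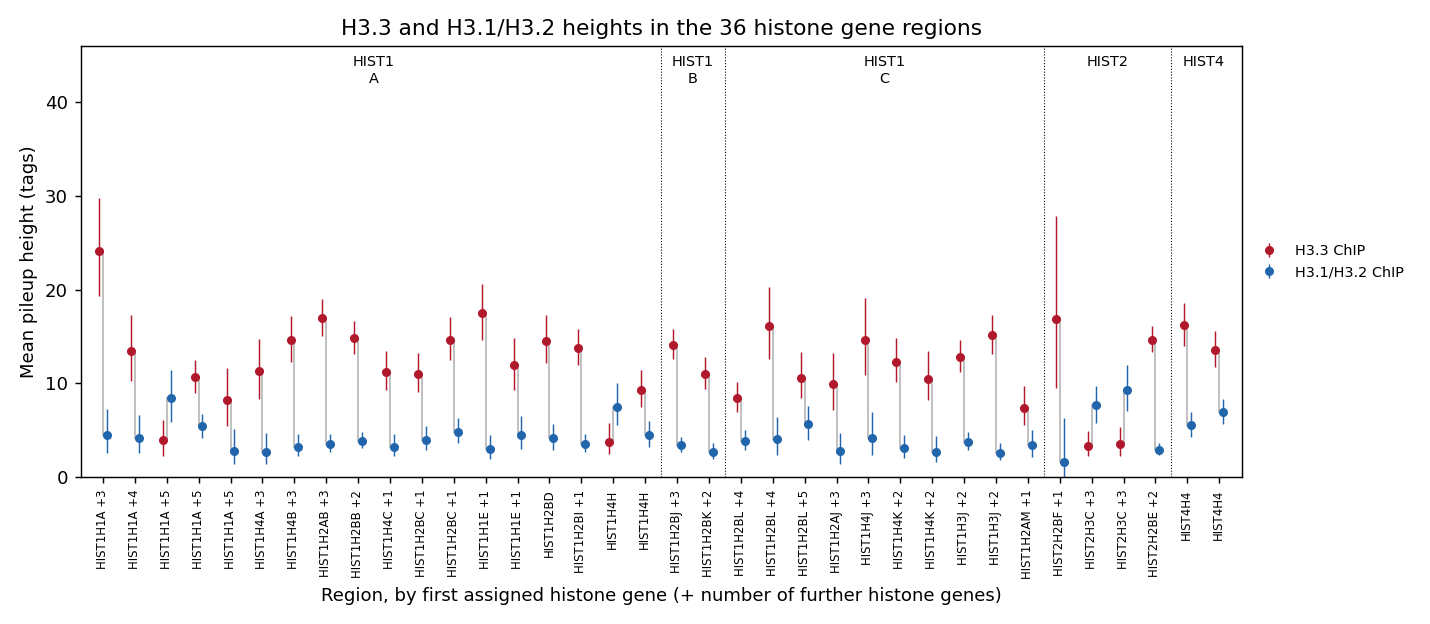
Mean pileup height of each of the 36 histone gene regions in the H3.3 ChIP (red) and the H3.1/H3.2 ChIP (blue), ordered along the clusters, with exact Poisson 95% intervals on the tags as bars. H3.3 reached 24.2 at the first region and stood above H3.1/H3.2 in 32 regions, and 4 regions had the opposite order.

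As a log2 ratio, H3.3 to H3.1/H3.2 with 1 added to each height, the median was 1.53 (95% order-statistic interval over regions 1.26 to 1.70) in the histone gene regions and 0.27 in all regions. The authors' scaling between libraries is not known here, and every sign depends on it. All promoter regions had a median of 0.78, promoter regions with a CpG island 0.92, and regions at the promoters of 3 or more genes, which resemble the histone clusters in gene density, 0.71. Of the 36 regions, 32 lay above the median of all promoter regions and 28 above that of promoter regions with an island. H3.3 height was above the median of island promoters (10.8) in 24 of 36 histone regions, and H3.1/H3.2 height was above their median (5.78) in 5 of 36. The regions were not long, with a median of 1999 bases as deposited, against 3599 bases for promoters of 3 or more genes.

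**Figure D2:**
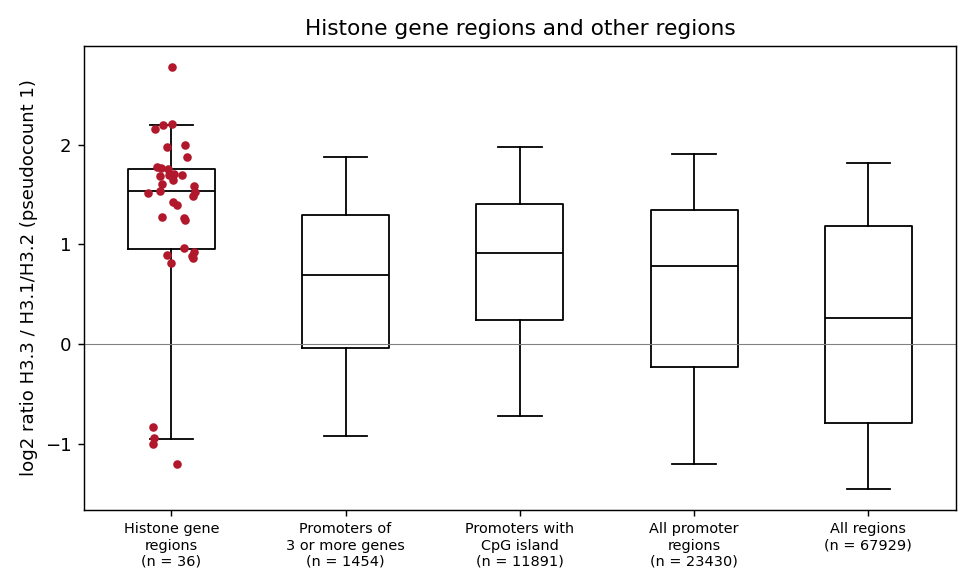
Log2 ratio, H3.3 to H3.1/H3.2 (pseudocount 1), in the 36 histone gene regions (red points, 1 per region) and in other regions, where boxes span the quartiles with the median and whiskers run to the 5th and 95th percentiles. The histone regions had a median of 1.53 and 4 points below 0, and the other groups, shown without the histone regions, had medians of 0.70, 0.91, 0.78 and 0.27.

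A CpG island lay in 27 of the 36 regions (75.0%), against 50.8% of all promoter regions. H3.3 was at least 1.5-fold higher in each of the 27, a call that 65.9% of promoter regions with an island met. Their median log2 ratio was 1.69 (1.52 to 1.78). Of the 9 histone regions without an island, 5 had H3.3 and 4 had H3.1/H3.2 at least 1.5-fold higher, close to the shares of 51.4% and 30.4% over all promoter regions without an island.

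Around the gene starts the H3.1/H3.2 ChIP gave no call at all. A promoter region, one that reaches into the window from 7500 bases upstream to 2500 bases downstream of the start, was assigned to 42 of the 44 genes. At every step of 200 bases from 1300 bases upstream to 1300 bases downstream of these 42 starts, 0 genes lay in a region called in H3.1/H3.2. Over the other 17487 genes with a promoter region the share was 23.9% at 1300 bases upstream and 32.1% at 1300 bases downstream. Regions called in H3.3 lay 300 bases downstream of the start in 33 of 42 histone genes (78.6%) and in 60.6% of the other genes. At 100 bases upstream the count was 22 of 42 histone genes, lower than 28 at 300 bases upstream and 30 at 100 bases downstream. The other genes showed 56.5% at that place, beside 57.3% and 59.1%. Genes that share a region share a measurement, so the 42 genes are not independent.

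**Figure D3:**
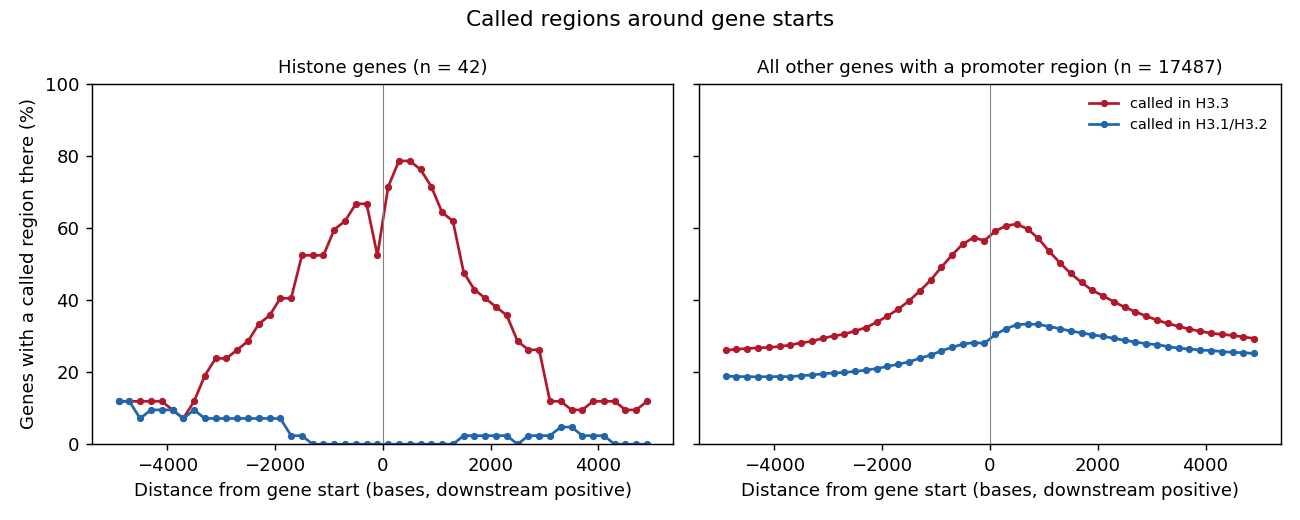
Share of genes with a called region at each distance from the gene start (bases, downstream positive), for regions called in H3.3 (red) and in H3.1/H3.2 (blue), for 42 histone genes and 17487 other genes. Histone genes show a dip to 22 of 42 just upstream of the start in H3.3, and a blue line at 0 within 1300 bases of it.

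Breaks between regions lay near the starts. Regions are built from windows of 200 bases, and in 10 places histone regions were parted by a single uncalled window. At 8 of them H3.3 alone was called on both sides, and in all 8 the middle of the window lay within 500 bases of a histone gene start, at a median of 137.5 bases. Such gaps between H3.3-only regions lay that near a start in 20.8% of 2409 promoter pairs over all genes, and in 28.9% of 820 where a region served 2 or more promoters. Histone starts are closely spaced, so a near start is easier to meet here. By the authors' table, the starts of HIST1H2AC, HIST1H2BD and HIST1H4B lay inside such a window, and those of 27 genes lay inside a region. By RefSeq, the start of HIST1H2BD lies in a region, and that of HIST1H2BN, among the 27, lies inside such a window. Another 6 starts were within 500 bases of a region and 6 were farther.

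Not all head-to-head H2A and H2B pairs showed such a break. There were 8 pairs with starts 224 to 322 bases apart. One H3.3-only region ran over both starts in 4 of them, HIST1H2AG with HIST1H2BJ, HIST1H2AH with HIST1H2BK, HIST1H2AI with HIST1H2BL, and HIST2H2AC with HIST2H2BE. An uncalled window parted H3.3 regions near the starts of 3 pairs, HIST1H2AC with HIST1H2BC, HIST1H2AK with HIST1H2BN, and HIST1H2AM with HIST1H2BO. The HIST1H2AC interval printed above begins at the end of the region on the HIST1H2BC side and otherwise lies in the uncalled window (chr6:26124000-26124199). That region (chr6:26121600-26123999) had an H3.3 height of 10.99 and an H3.1/H3.2 height of 4.00 over its whole length. The region on the HIST1H2AC side (chr6:26124200-26126799), outside the interval, had an H3.3 height of 14.7 and an H3.1/H3.2 height of 4.84. At the last pair, the region covered the start of HIST1H2BM and stopped 259.5 bases short of that of HIST1H2AJ. Across the 8 pairs the log2 ratio ran from 0.81 to 2.16.

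Along HIST1 the regions fell into 3 blocks spread over 1883.2 kb. The first, from HIST1H1A to HIST1H4H, held 18 regions with a median log2 ratio of 1.5. The middle block around HIST1H2BJ and HIST1H2BK held 2 regions, at 1.78 and 1.69. The last, from HIST1H2BL to HIST1H2BO, held 10 regions with a median of 1.56, all of them called in H3.3 alone. The block medians differed by less than the spread over regions, whose order-statistic interval was 1.24 to 1.75 in the first block and 0.92 to 1.77 in the last.

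**Figure D4:**
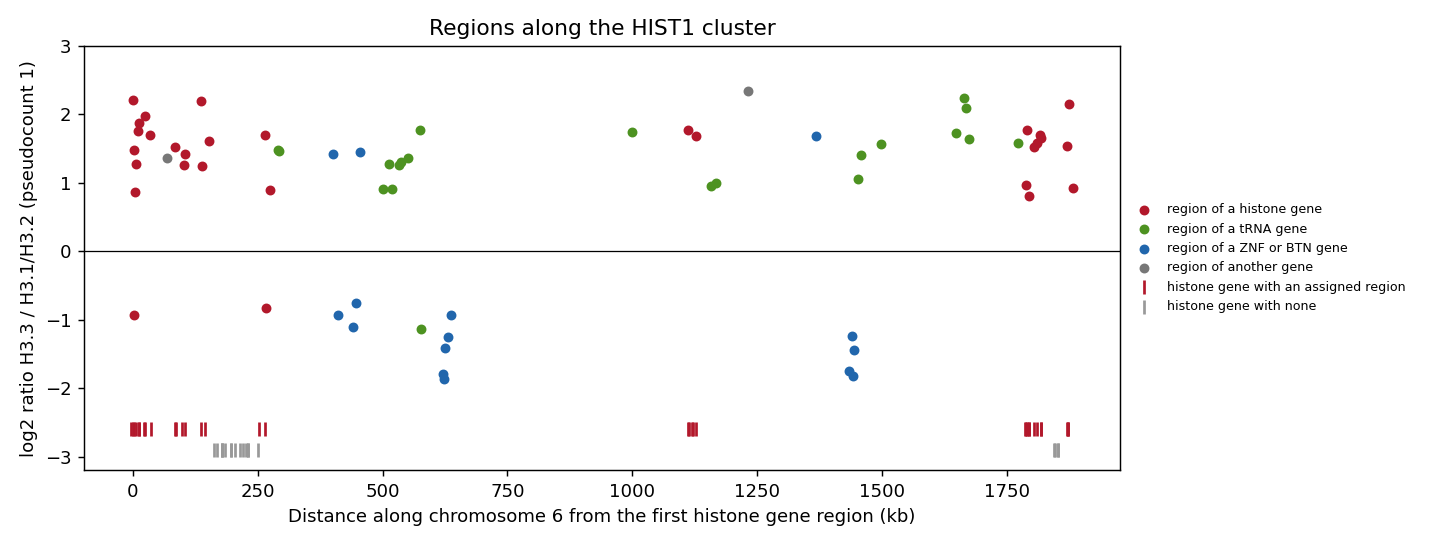
Log2 ratio of every region between the first and the last histone region of HIST1, by distance along chromosome 6 in kb, coloured by the genes assigned, with ticks for RefSeq histone genes with (red) and without (grey) an assigned region. Histone regions sit mostly between 0.81 and 2.21, 2 of them lie below 0, and the stretch of mainly grey ticks before the last gene of the first block holds no region.

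The linker histone genes encode the H1 proteins that bind DNA between nucleosomes. All 3 with a promoter region had H3.3 at least 1.5-fold higher, a call that 63.8% of all genes met. The region nearest HIST1H1E (chr6:26156000-26157799) had an H3.3 height of 17.5 and an H3.1/H3.2 height of 3.02, a 5.78-fold ratio (3.76 to 9.41), and covered the start. HIST1H1C (chr6:26052600-26056999), one of the 3 longest regions, had an H3.3 height of 14.8 and an H3.1/H3.2 height of 3.85 (3.85-fold, 2.97 to 5.0). HIST1H1A took its values, H3.3 at 24.2 and H3.1/H3.2 at 4.44, from a region 2787.5 bases from its start that lies on HIST1H3A. HIST1H1T, the testis H1 gene, was assigned a region but none in its promoter window.

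The H3.1 genes of HIST1 with a region, HIST1H3A, HIST1H3B, HIST1H3C, HIST1H3H and HIST1H3J, each had H3.3 at least 1.5-fold higher at the nearest one. So did all 32 HIST1 genes with a promoter region, of any class, and 63.8% of all genes. The H3.2 genes of HIST2 held both the highest and the lowest ratios of the H3 class. The region at HIST1H3A (chr6:26020600-26021399) was the tallest of all histone regions in H3.3 (5.44-fold, 3.13 to 9.82), and lay 109.5 bases downstream of the start in the authors' table, which is 39.5 bases from the RefSeq start that the printed sequence runs up to. HIST1H3C shared a region with HIST1H2BB (chr6:26042200-26045999), the third tallest in H3.3, with an H3.3 height of 16.9 and an H3.1/H3.2 height of 3.54. HIST1H3B, HIST1H3H and HIST1H3J had log2 ratios of 1.75, 1.77 and 1.54. HIST2H3D, with its neighbour HIST2H2BF, had the highest ratio, H3.3 at 16.8 and H3.1/H3.2 at 1.60, in a region of 1 window (chr1:149813200-149813399). That ratio rests on about 15 H3.3 tags and 1 H3.1/H3.2 tag after rounding, and its interval of 2.31 to 631, from the rounded tags, is wide. The start of HIST2H2BF in the authors' table is 753.5 bases from that in RefSeq.

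HIST2H3A and HIST2H3C, and likewise HIST2H2AA3 and HIST2H2AA4, are near-identical copies in an inverted repeat, and the authors' handling of reads that match several sites is not known here. No region lay on any of the 4 genes, although RefSeq draws H4C15 (HIST2H4B), to which no region was assigned, across the stretch between the copies. Between the copies were 2 regions called in H3.1/H3.2 alone. The first (chr1:149844600-149846399) had an H3.3 height of 3.33 and an H3.1/H3.2 height of 7.64 (0.435-fold, 0.270 to 0.707). The next (chr1:149846600-149847999) had an H3.3 height of 3.50 and an H3.1/H3.2 height of 9.33 (0.375-fold, 0.221 to 0.629), the highest H3.1/H3.2 of all histone regions. They lay 1848.5 to 4620.5 bases from the starts that took their values from them. Without these 2 regions the HIST2 median log2 ratio was 2.39 in place of 0.50, and 2 regions rather than 4 remained with H3.1/H3.2 higher. Whether read placement bears on them was not tested.

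The rest of HIST2 was the longest histone region of all, 6399 bases as deposited (chr1:149883600-149889999), over HIST2H2BE, HIST2H2AC and HIST2H2AB. It had an H3.3 height of 14.65 and an H3.1/H3.2 height of 2.91 (5.03-fold, 3.98 to 6.47), from 419 and 83 tags, and covers the HIST2H2BE interval printed above.

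Among H2A genes HIST2H2AC and HIST2H2AB stood highest through that region, followed by HIST1H2AB (chr6:26032400-26034599) with an H3.3 height of 14.6 and an H3.1/H3.2 height of 3.25. The lowest in HIST1 were HIST1H2AJ (1.89-fold, 1.28 to 2.86) and HIST1H2AI (2.20-fold, 1.58 to 3.15). Their head-to-head partners HIST1H2BM and HIST1H2BL had the same regions and were the lowest H2B genes. The second highest H2B gene was HIST1H2BD, through the region of HIST1H1E. That place rests on its start in the authors' table, 277.5 bases from the RefSeq start, which lies in the next region (chr6:26158000-26159399), at 2.67-fold (1.69 to 4.24). HIST1H2BI was assigned a region but none in its promoter window.

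The nearest regions of all 8 H4 genes were called in H3.3 alone, as for 57.6% of all genes with a promoter region, with log2 ratios of 0.86 to 1.78. HIST1H4H (chr6:26282600-26285999) had an H3.3 height of 13.8 and an H3.1/H3.2 height of 3.54 (3.89-fold, 2.86 to 5.32). HIST1H4I stood highest only through the region of HIST1H2BJ and HIST1H2AG (chr6:27129400-27134399), another of the longest regions, 4910.5 bases from its own start. HIST1H4B was lowest, with an H3.3 height of 10.6 and an H3.1/H3.2 height of 5.41 (1.97-fold, 1.48 to 2.66). HIST4H4, the lone gene of its cluster (chr12:14768800-14771599), had an H3.3 height of 16.2 and an H3.1/H3.2 height of 5.53 (2.93-fold, 2.22 to 3.91). Its further region (chr12:14773000-14776399), at the replication-independent gene H2AFJ, was the only histone region called in both ChIPs (1.96-fold, 1.54 to 2.51).

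By class, the median log2 ratio at the region nearest the start was 2.20 over 3 H1 genes, 1.61 over 12 H2A, 1.78 over 11 H2B, 1.76 over 8 H3 and 1.52 over 8 H4 genes. The values ran from 1.70 to 2.21 in H1 and from 0.86 to 1.78 in H4, and those of H2A, H2B and H3 spanned wider ranges that overlap both. The classes were not tested against each other, and many genes of different class have the same region, since 42 genes took their values from 28 regions. Over all 42 genes the median was 1.69 (1.53 to 1.78), against 0.89 over all 17529 genes with a promoter region. H3.3 was at least 1.5-fold higher at 38 of 42 (63.8% of all genes), and at the other 4, the HIST2 copies, H3.1/H3.2 was higher by as much (11.8% of all genes).

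**Figure D5:**
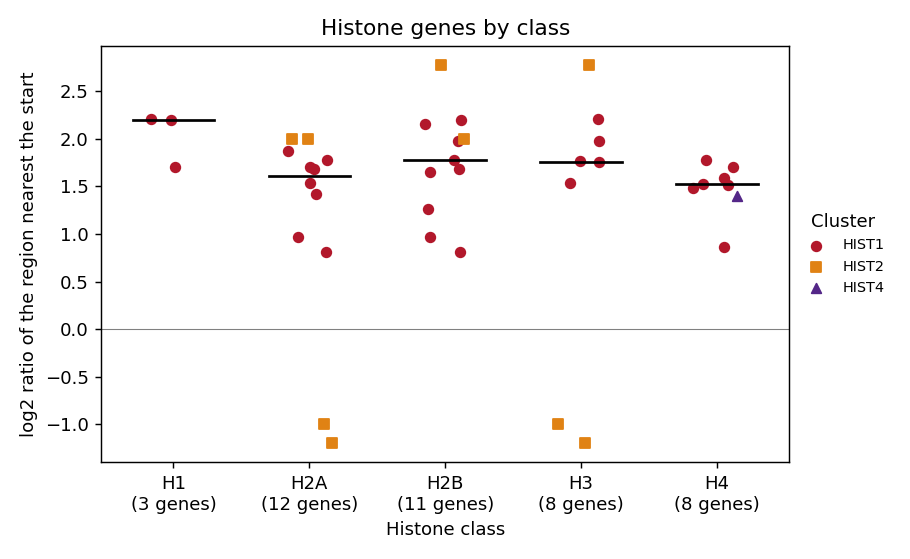
Log2 ratio of the region nearest the start for the 42 histone genes with a promoter region, by class, with symbols for the cluster and a bar at the class median. The bars lie at 2.20, 1.61, 1.78, 1.76 and 1.52, and the 4 points below 0 are HIST2 genes of H2A and H3.

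The 2 HIST1 regions called in H3.1/H3.2 alone lay off the genes. One (chr6:26023000-26023999) sat between HIST1H4A and HIST1H4B, with an H3.3 height of 3.90 and an H3.1/H3.2 height of 8.39 (0.465-fold, 0.243 to 0.837). The other (chr6:26287000-26288399) lay upstream of HIST1H4H and also near a tRNA gene, with an H3.3 height of 3.77 and an H3.1/H3.2 height of 7.46 (0.505-fold, 0.299 to 0.852). Neither held a CpG island or a RefSeq histone gene.

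Many histone genes had no region. Of 71 protein-coding RefSeq genes with an older HIST symbol, 44 (62.0%) were assigned a region, against 70.2% of all 19974 protein-coding genes. The 27 others included all 3 of HIST3, 3 of HIST2 and 21 of HIST1. A stretch of 109200 bases (chr6:26173400-26282599) held 16 histone genes, from HIST1H2BE to HIST1H2BI and including the linker gene HIST1H1D, and no region of either ChIP. Of these genes only HIST1H2BI was among the 44, through a region beyond the stretch. A second group, HIST1H2AL, HIST1H1B, HIST1H3I and HIST1H4L, lay 15666 to 23402 bases from any region. HIST1H2AA and HIST1H2BA, known from testis, lay 234838 and 234055 bases away. A missing region says that neither ChIP passed the authors' call there, not that H3.3 or H3.1/H3.2 is absent. TATAAA was found in 31 of 38 promoters (81.6%) of genes with a region in the promoter window and in 13 of 28 (46.4%) of those without one, and on the gene's own strand in 28 of 38 and 11 of 28. CCAAT was found in 33 of 38 and 23 of 28.

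Of the replication-independent histone genes, 10 of 21 listed had a promoter region. Their median log2 ratio was 1.15 (0.35 to 1.67), an interval that overlaps that of the cluster genes. H3.3 was at least 1.5-fold higher in 8 of the 10, against 63.8% of all genes. The H3.3 gene H3F3A (4.83-fold, 3.08 to 8.16) and H2AFV (4.00-fold, 2.56 to 6.61) were the highest. The macroH2A gene H2AFY (1.32-fold, 0.787 to 2.17) and CENPA, the centromeric H3 (0.831-fold, 0.557 to 1.26), were the lowest, and both intervals include 1. The regions of H3F3A and CENPA covered their starts, and those of H2AFV and H2AFY lay 73.5 and 1148.5 bases off.

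Among 16 genes of histone transcription and the histone locus body, 12 had a promoter region, at a median log2 ratio of 0.25 (-0.59 to 1.04). Of these, 4 had H3.3 and 3 had H3.1/H3.2 at least 1.5-fold higher, against 63.8% and 11.8% of all genes. POU2F1, which encodes the octamer-binding OCT1 (5.95-fold, 3.31 to 11.8), and NFYA, a subunit of the CCAAT-binding factor (3.57-fold, 2.74 to 4.68), were highest. HINFP, the H4 promoter factor (0.593-fold, 0.496 to 0.705), and the Cajal body protein COIL (0.415-fold, 0.278 to 0.624) were lowest. The NFYA region covered its start, and those of POU2F1, HINFP and COIL lay 230.5, 76.5 and 651.5 bases off. Of 21 genes of histone mRNA processing and decay, 18 had a promoter region, at a median log2 ratio of 0.35 (-0.34 to 0.62), and H3.3 was at least 1.5-fold higher in 6 and H3.1/H3.2 in 3. The coactivator NPAT and the stem-loop binder SLBP had log2 ratios of 0.41 and 0.44. SYMPK, a scaffold of the cleavage complex (3.45-fold, 2.13 to 5.83), and ZCCHC11, a terminal uridyl transferase (3.43-fold, 2.05 to 6.28), were highest. The cleavage factor CSTF2 (0.313-fold, 0.178 to 0.538) and ZNF473, a U7 snRNP-associated protein (0.397-fold, 0.280 to 0.559), were lowest. The regions of SYMPK and ZNF473 covered their starts, and those of ZCCHC11 and CSTF2 lay 464.5 and 1440.5 bases off.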

How the data were processed

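The authors deposited 1 table of regions called in either ChIP and merged, with a pileup signal for each library (mean and highest height), per the file headers. It also holds a mark for each ChIP called and the authors' log2 ratio, H3.3 to H3.1/H3.2 without a pseudocount, which matched the mean heights to within 8.88e-16. BWA, SICER and hg38 are named, per the submitters' processing notes. The sources used here do not give their settings, the scaling between libraries or the use of the input. Chromosome Y (4 regions) was left out, which left 67965 regions.

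Log2 ratios used mean heights plus 1, and folds were plain ratios. Tags were height times length divided by 224, a constant the table itself holds, rounded to whole numbers. The histone regions had 15 to 419 tags for H3.3 and 1 to 105 for H3.1/H3.2. Whole-library depth is unknown. Fold intervals are exact conditional 95% intervals on tags, and reads had no molecular identifiers. If heights had been scaled, tags would be off by that factor. Intervals of medians are binomial order statistics. Both were tested on simulated independent counts or values, which do not cover unknown scaling, the selection of called regions or genes sharing a region. A gene's value was that of the promoter region nearest its start. The authors' promoter window was recovered from the table and gave their mark in 100% of 36810 regions with 1 gene. All 44 genes matched RefSeq by older symbols, 42 of them with starts within 200 bases. Coordinates of regions are as deposited.

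The members and lists were chosen with earlier results of these data known. Every member was counted. Values were given for all of HIST2, HIST4 and H1, the 2 highest and lowest genes of a class or list, the 3 longest and tallest regions, and regions called in H3.1/H3.2 alone. Further genes, head-to-head pairs and breaks were named after their values were seen. Alternatives numbered 14. Python 3.11.15, scipy 1.17.1 and pandas 2.3.3 were used.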

Additional observations from a re-analysis of the deposited data

How the results depend on the processing

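Of 111 values recomputed under 14 alternatives, 85 stayed within the 95% interval of their median (the range over regions or genes where fewer than 6) or within 1.5 times their count, 25 moved and 1 changed sign. A median over fewer of the same regions cannot leave their range. HIST2, at 0.50 as reported, thus counted as unmoved at 2.78 in its 1 region with only histone genes assigned. The 32 regions with H3.3 higher also counted as unmoved at 24 under a pseudocount of 10. A pseudocount of 10, which shrinks ratios by construction, gave medians of 0.73 for regions, 0.76 for gene starts, 0.73 for HIST1, 0.62 for HIST4, 1.08 for H1, 0.73 for H2A, 0.85 for H2B and 0.74 for H4, and left 0 regions with H3.1/H3.2 at least 1.5-fold higher. A pseudocount of 0.1 gave 1.76 for regions, 1.95 for gene starts, 1.79 for HIST1 and 2.42 for H1. Peak heights gave 1.32 for H1. Regions of at least 1000 bases left 3 in HIST2, with a median of -1.0, because the short HIST2H2BF region was dropped. Regions above the 25th percentile of summed height left 2 with H3.1/H3.2 higher. Regions with only histone genes assigned were fewer by construction, with H3.3 higher in 20, H3.1/H3.2 higher in 1, and called in both, H3.1/H3.2 alone and H3.3 alone in 0, 1 and 20. Averaging every region of a gene gave 1.53 in place of the nearest region's median. Calls held to the median height of called regions left 0 in both and 2 in H3.1/H3.2 alone. Leaving out the 2 regions between the near-identical HIST2 copies, chosen after seeing the data, left 2 regions with H3.1/H3.2 higher, and 2 called in H3.1/H3.2 alone. Centring on regions called in both moved ratios by 0.022 on the log2 scale. No paired analysis was possible because each antibody had 1 library.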

Other observations

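Between the first and last HIST1 region lay 38 regions with no histone gene assigned. Of these, 21 were assigned a tRNA gene, and they resembled the histone regions, with a median log2 ratio of 1.40. Their median heights were 11.5 (H3.3) and 3.55 (H3.1/H3.2), and H3.3 was at least 1.5-fold higher in 20 (45.2% of all regions). The 15 regions of zinc finger (ZNF) and butyrophilin (BTN) genes without a tRNA gene had a median of -1.24. Their median heights were 3.27 (H3.3) and 8.37 (H3.1/H3.2), and H3.1/H3.2 was at least 1.5-fold higher in 12 (34.9% of all regions). These groups were formed after the values were seen.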
